A study of Mus musculus with 9 samples.

Results

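The genes described here are those named Wdr or Ttc with a number, the mouse genes named after their WD repeats or their tetratricopeptide repeats. They were taken from the table of raw counts by their GENCODE M21 symbols and had at least 10 counts summed over the 9 libraries, which left 98 of the 23074 genes in the table, 59 Wdr and 39 Ttc genes. Wdr19, Wdr35, Wdr63, Wdr78, Ttc8, Ttc21b and Ttc25 were left out by name. No further gene of either name fell under the minimum of 10 counts, and the genes closest to it were Wdr72 with 11 counts and Ttc9b with 15 counts. Both of these were too low to be tested, so that 96 genes were tested for a difference between genotypes.

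A WD repeat protein folds into a ring of blades, and tetratricopeptide repeats stack into a curved surface of paired helices. Both serve as platforms on which large protein complexes are built, and neither defines a pathway. Such proteins are common in cilia and flagella, where they form parts of the intraflagellar transport (IFT) trains, of the dynein motors and of the axoneme, and they are also found in ribosome assembly, chromatin complexes, ubiquitin ligases and membrane traffic. In the testis, round spermatids build the flagellum of the sperm, and RFX2, one of the RFX transcription factors, recognises the X-box found at many ciliary genes.

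At postnatal day 29-30, RNA-seq was carried out on decapsulated testes from 5 mice of the wild type and 4 Rfx2-/- mice, with 1 library per mouse. All mice were on a mixed background of C57BL/6, 129/Sv and FVB/N, and the knockout mice lacked a single exon of Rfx2, deleted in the whole animal with a universally expressed Cre. The comparison asked which of these mRNAs differed in testes without RFX2. Reads from the remaining exons of Rfx2 were still counted, at 470.9 to 624 CPM (counts relative to the TMM-adjusted total of a library) in the wild type and at 61.5 to 199 CPM in the knockout libraries, so that every knockout library was below every wild type library.

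The libraries held 13574764 to 15193330 counts, except for Rfx2-/- replicate 1 with 28800855. Rfx2-/- replicate 2 stood apart by gene length. Relative to the wild type mean, its median log2 level was 0.56 among genes whose exons sum to under 2 kb and -0.85 among those over 8 kb, against -0.19 to 0.17 for both classes in the other 3 knockout libraries. Markers of elongating spermatids were below 0 on the log2 scale in 12 of 12 cases (11 when scaled by total counts), and edgeR called 0. At an unadjusted p under 0.05 in edgeR 9 were lower, against 13.7% of all genes tested. At an adjusted p of 0.05 there were 5, against 7.31%. In 1 every knockout library was below every wild type library, against 9.7% of all genes. These markers had a summed level of 9303 to 19553 CPM in the wild type and 7628 to 11674 CPM in the knockout libraries. The lowest wild type sum was in wild type replicate 3 and the highest knockout sum in Rfx2-/- replicate 2. The study found that knockout spermatids arrest before they elongate, so these mRNAs are not restricted to elongating cells. It also states that the mRNAs of Tnp1 and Tnp2 were not reduced. Here their log2 fold changes were -1.12 (adjusted p = 0.0416 in edgeR) and -0.77 (adjusted p = 0.0927 in edgeR). Of 10 markers of meiotic spermatocytes 8 were above 0, with a median of 0.56. At an unadjusted p under 0.05 in edgeR 6 were higher, against 13.9% of all genes tested. At an adjusted p of 0.05 there was 1, against 3.48%. In 3 every knockout library was above every wild type library, against 6.16% of all genes. Their summed level was 4642 to 5612 CPM in the wild type and 5131, 8721, 4928 and 6434 CPM in Rfx2-/- replicates 1 to 4, so that the sums of replicates 2 and 4 lay above the wild type. Most of this sum was Ldhc, at 2824 to 3818 CPM in the wild type and 2941, 5430, 2961 and 4063 CPM in Rfx2-/- replicates 1 to 4. The order of the sums is thus largely that of 1 gene. None of the markers of 8 testis cell types was at 0 in all libraries. In whole testis, fewer cells of a type and less RNA per cell cannot be told apart.

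The sequences before the start of transcription of 6 of the genes are shown because RFX proteins act at promoters and because the genes differed in their response and in whether an RFX2 peak was found. Each line gives the 120 bases before the RefSeq start (GRCm38.p6), read on the strand of the gene. Capitals mark a match to the X-box form searched for, GTNNCC followed 2 bases later by GGNNAC, on either strand. The pattern is strict, and a sequence that differs from it at a fixed base or in its spacing is given as no match. No match therefore does not mean that an X-box is absent. RefSeq starts can differ from those of GENCODE. The GENCODE models of Wdr38, Ttc29, Ttc26 and, slightly, Ttc6 begin further upstream. For Ttc29 and Ttc26 the marked match thus lies downstream of the GENCODE start.
Ttc29 (chr8:78213222-78213341, plus strand; match starts 41 bases before the start): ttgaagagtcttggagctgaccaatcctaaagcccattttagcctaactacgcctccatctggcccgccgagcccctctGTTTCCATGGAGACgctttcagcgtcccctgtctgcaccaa
Ttc30a2 (chr2:75978180-75978299, minus strand; 24 bases before the start): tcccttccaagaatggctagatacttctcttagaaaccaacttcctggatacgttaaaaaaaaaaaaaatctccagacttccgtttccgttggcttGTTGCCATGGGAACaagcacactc
Ttc26 (chr6:38381404-38381523, plus strand; 33 bases before the start): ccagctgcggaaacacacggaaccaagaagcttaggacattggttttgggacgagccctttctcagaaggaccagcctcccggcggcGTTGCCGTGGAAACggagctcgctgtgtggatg
Wdr54 (chr6:83156380-83156499, minus strand; 110 bases before the start): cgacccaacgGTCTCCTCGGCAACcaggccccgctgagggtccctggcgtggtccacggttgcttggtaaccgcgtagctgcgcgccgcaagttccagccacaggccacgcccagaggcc
Ttc6 (chr12:57563995-57564114, plus strand; no match): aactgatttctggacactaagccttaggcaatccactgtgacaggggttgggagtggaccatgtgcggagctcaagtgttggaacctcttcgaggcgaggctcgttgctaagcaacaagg
Wdr38 (chr2:38998189-38998308, plus strand; no match): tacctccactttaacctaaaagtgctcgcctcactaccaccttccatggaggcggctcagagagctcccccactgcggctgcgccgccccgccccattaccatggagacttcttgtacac

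Of these 6 genes, Ttc6, Wdr38 and Ttc29 were among the most strongly reduced in the knockout. Ttc30a2 and Wdr54 fell by somewhat less than 2-fold, and Ttc26 did not pass the test.

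Genes were called if they differed by more than 2-fold with an adjusted p of 0.01 or less in edgeR's quasi-likelihood test over 15613 genes. Of the 96 genes tested, 7 were called lower in the knockout, against 3.68% of all genes tested, and 0 were called higher, against 0.826% of all genes. Scaling by total counts gave 6 lower and 1 higher, and removal of the length trend gave 7 lower and 1 higher, in both cases Wdr66. DESeq2 and limma-voom also called none of them higher, and at an unadjusted p under 0.05 in edgeR 4 genes were above 0, against 13.9% of all genes, and 28 were below, against 13.7%. With the limit set at an adjusted p of 0.05 and at any fold, 17 were lower and 2 were higher, against 7.31% and 3.48% of all genes. In 24 genes every knockout library was below every wild type library, against 9.7% of all genes, and in 2 genes every one was above, against 6.16%. The median log2 fold change of the 96 genes was -0.06, close to the 0.03 of all genes tested (0.07 and 0.16 when scaled by total counts), and 54 of the 96 were below 0 (45 when scaled by total counts), against 46.9% of all genes. Of the 7 genes called, 3 were among the 58 Wdr and 4 among the 38 Ttc genes tested.

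The strongest reductions were found in 4 genes of which little is known, Wdr38, Ttc22, Wdr95 and Ttc6. Wdr38 (ENSMUSG00000035295) was at 33.6, 37.1, 21.8, 32.1 and 36.3 CPM in wild type replicates 1 to 5 and at 0.963, 1.14, 0.477 and 0.589 CPM in Rfx2-/- replicates 1 to 4. All knockout libraries thus lay far below the lowest wild type library, replicate 3. The log2 fold change was -5.30 (SE 0.28, adjusted p = 9.48e-08 in edgeR), and the knockout mean was 2.46% of the wild type mean.

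Ttc6 (ENSMUSG00000046782) was the most abundant of these 4 genes in CPM. It was at 136, 137, 129, 161 and 167 CPM in the wild type and at 10.3, 8.09, 7.29 and 9.81 CPM in the knockout libraries. Levels were similar within each genotype and separated by more than 10-fold between them, with a log2 fold change of -4.04 (SE 0.17, adjusted p = 1.76e-08 in edgeR).

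Ttc22 (ENSMUSG00000034919) and Wdr95 (ENSMUSG00000029658) were low in the wild type and nearly undetected in the knockout. Ttc22 was at 3.13, 7.12, 5.65, 3.32 and 8.50 CPM in the wild type, and the knockout libraries held 5, 2, 1 and 3 counts. Wdr95 was at 5.96, 5.96, 3.72, 5.16 and 7.25 CPM in the wild type, with 11, 3, 2 and 2 counts in the knockout libraries. At most 3 counts were thus found in 3 of the 4 knockout libraries for either gene. From summed counts Ttc22 was 37.7-fold lower in the knockout (95% exact interval 20.8 to 76.1, counting error only), and Wdr95 was 23.1-fold lower (14.4 to 39.5). The fitted log2 fold changes were -5.18 (SE 0.45, adjusted p = 8.70e-06 in edgeR) for Ttc22 and -4.56 (SE 0.34, adjusted p = 2.16e-06 in edgeR) for Wdr95.

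Ttc16 and Ttc29 were abundant in the wild type and fell less steeply. Ttc29, a protein of the sperm axoneme whose loss causes flagellar defects and male infertility, was at 218, 240, 191, 245 and 258 CPM in the wild type and at 77.5, 74.0, 65.0 and 80.1 CPM in the knockout libraries. The groups were well separated and the knockout libraries were close to each other, with a log2 fold change of -1.64 (SE 0.14, adjusted p = 9.40e-06 in edgeR). Ttc16 was at 152, 171, 139, 169 and 186 CPM in the wild type and at 59.0, 26.1, 48.9 and 48.3 CPM in the knockout libraries, with Rfx2-/- replicate 2 the lowest. Its log2 fold change was -1.84 (SE 0.22, adjusted p = 1.23e-04 in edgeR).

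Wdr1, the cofactor of cofilin in the disassembly of actin filaments, lay at the limit of the call. It was at 89.6, 112, 89.7, 98.1 and 97.5 CPM in the wild type and at 51.9, 34.7, 61.3 and 42.9 CPM in the knockout libraries. The groups did not overlap, and the log2 fold change was -1.03 (SE 0.17, adjusted p = 0.00176 in edgeR). Wdr1 was called in 10 of 17 fits, the one reported and 16 alternatives, and the other 6 genes were called in 17 of 17. It was no longer past 2-fold without wild type replicate 2 (-0.97), without Rfx2-/- replicate 2 (-0.91) or without Rfx2-/- replicate 4 (-0.95, adjusted p = 0.0123 in edgeR). Wdr1 also lost its call when scaled by total counts, with the length trend removed, in limma-voom and in a test against the 2-fold limit itself.

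**Figure D1:**
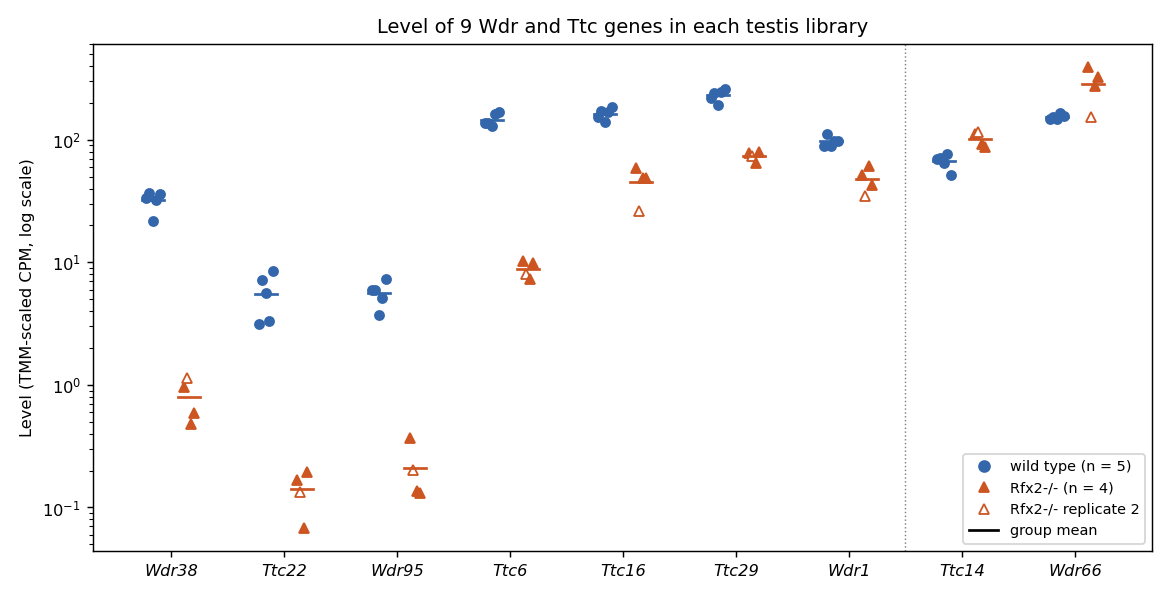
Level (TMM-scaled CPM, log axis) of the 7 genes called lower and of the 2 genes higher at an adjusted p of 0.05, in each of 5 wild type (circles) and 4 Rfx2-/- libraries (triangles); horizontal lines are group means and open triangles mark Rfx2-/- replicate 2. The genotypes do not overlap for the 7 genes on the left, whereas for Wdr66 the open triangle, at 154 CPM, lies among the wild type libraries.

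Wild type replicate 3 was the lowest wild type library for 5 of the 7 called genes (Wdr38, Wdr95, Ttc6, Ttc16 and Ttc29), compared with 31.9% of all genes tested, and it was the lowest for all 12 elongating spermatid markers. Its summed level of these markers, 9303 CPM, lay between the 7628 to 8813 CPM of Rfx2-/- replicates 1, 3 and 4 and the 11674 CPM of Rfx2-/- replicate 2. The sum is weighted to the most abundant markers, and replicate 2 was not the highest knockout library for each marker. Tnp1 was at 1309 CPM in Rfx2-/- replicate 2 and at 541 to 614 CPM in the other knockout libraries. Akap3 was at 659 CPM and at 798 to 917 CPM, respectively. The part of the cell types in these differences was not tested.

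Among the 16 genes placed in cilia and the axoneme, 5 were called lower, against 3.68% of all genes tested. At an adjusted p of 0.05, 8 were lower and 1 was higher, against 7.31% and 3.48% of all genes. Their median log2 fold change was -0.60. A role is established for 6 of the 16 genes (Ttc12, Ttc23, Ttc29, Wdr66, Wdr90 and Wdr92), with 1 called lower, 2 lower and 1 higher at 0.05. The other 10 are little characterised and were placed here with results of these data known, so that their 4 calls (Wdr38, Wdr95, Ttc6 and Ttc16) are not independent evidence for the group. Wdr54 and Wdr93 fell without reaching 2-fold. Wdr54 was at 51.2, 45.9, 43.2, 48.0 and 45.1 CPM in the wild type and at 24.4, 22.5, 25.1 and 30.9 CPM in the knockout libraries, without overlap, a log2 fold change of -0.86 (SE 0.13, adjusted p = 0.00108 in edgeR). Of the sequence of Wdr54, 32.2% is shared with the overlapping gene Rtkn, and reads there were left out of the counts. Wdr93 had 100.3 ± 6.46 CPM in the wild type (SD, n = 5) and 67.8 ± 7.78 CPM in the knockout (SD, n = 4), and its log2 fold change was -0.56 (SE 0.13, adjusted p = 0.0134 in edgeR).

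Ttc12, which is needed for the assembly of axonemal dynein arms, was at 98.2 to 115 CPM in the wild type and at 80.7, 52.6, 61.1 and 76.0 CPM in the knockout libraries. It was lower in every knockout library, with a log2 fold change of -0.63 (SE 0.15, adjusted p = 0.0196 in edgeR). Wdr92, a cochaperone with a role in the same assembly, had a log2 fold change of 0.13 (SE 0.18, adjusted p = 0.66 in edgeR), which turned to -0.10 without Rfx2-/- replicate 2. Wdr90, a protein of centrioles, had 48.9 ± 4.40 CPM in the wild type (SD, n = 5) and 41.0, 12.4, 31.6 and 26.2 CPM in the knockout libraries, without overlap but short of the threshold (log2 fold change -0.81, SE 0.26, adjusted p = 0.0719 in edgeR). Without Rfx2-/- replicate 2 its log2 fold change was -0.56 and the adjusted p was 0.0163. The remaining genes of the group, Ttc23l (-0.49), Wdr31 (-0.47), Ttc23 (-0.36), Wdr64 (-0.00) and Wdr27 (0.04), overlapped between genotypes and did not pass the test. For Wdr31 the overlap came from Rfx2-/- replicate 2 at 134 CPM, with 117 to 160.1 CPM in the wild type and 85.6 to 98.0 CPM in the other knockout libraries. Without that library Wdr31 was at -0.64 (adjusted p = 0.00243 in edgeR) and Ttc23l at -0.66 (adjusted p = 0.0315 in edgeR), and the other 3 still did not pass.

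Wdr66, also named Cfap251, is a protein at the base of a radial spoke of the sperm axoneme and was the one ciliary gene that rose. It was at 147, 155, 147, 167 and 155 CPM in the wild type and at 392, 154, 277 and 323 CPM in the knockout libraries. Rfx2-/- replicate 2 lay within the wild type range, and the other 3 knockout libraries lay far above it. The log2 fold change was 0.90 (SE 0.22, adjusted p = 0.0201 in edgeR), and without Rfx2-/- replicate 2 it was 1.10 (SE 0.12, adjusted p = 2.21e-05 in edgeR), past the call. Wdr66 has 7317 bases of exons, in the range of lengths that were mostly low in that library. The part of length in its level there was not tested.

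The 7 genes of IFT and of dynein-2, the motor of retrograde IFT, were all below 0, except that Wdr34 was above 0 when scaled by total counts, with a median log2 fold change of -0.55. None was called, and 3 were lower at an adjusted p of 0.05, against 7.31% of all genes tested. In 6 of the 7 every knockout library was below every wild type library, against 9.7% of all genes. This group too was drawn up with results of these data known. Ttc30a1, Ttc30a2 and Ttc30b encode IFT70, a subunit of the IFT-B complex, and lie next to each other on chromosome 2. Ttc30a2, the most abundant of them, was at 67.7, 78.7, 70.3, 80.7 and 91.2 CPM in the wild type and at 41.9, 32.8, 37.2 and 47.9 CPM in the knockout libraries. The groups were well separated, with a log2 fold change of -0.96 (SE 0.15, adjusted p = 0.00115 in edgeR), close to the limit of 2-fold and past it without wild type replicate 1 (-1.01) or without Rfx2-/- replicate 4 (-1.03).

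Ttc30a1 was at 22.2 to 30.9 CPM in the wild type and at 17.4, 17.3, 17.6 and 20.1 CPM in the knockout libraries, with a log2 fold change of -0.56 (SE 0.14, adjusted p = 0.0243 in edgeR). Ttc30b was at 4.10 to 6.64 CPM and at 2.75 to 4.02 CPM, with a log2 fold change of -0.55 (SE 0.21) that did not pass (edgeR adjusted p = 0.114). Stretches of 50 bases shared with other genes made up 53.9% of Ttc30a2, 34.8% of Ttc30b and 31.8% of Ttc30a1, mostly with each other, and reads with several positions in the genome had been discarded. The 3 values are therefore uncertain as single genes. Their sum was at 98.4, 107.8, 104.5, 109.5 and 127 CPM in the wild type and at 63.3, 53.2, 58.8 and 70.7 CPM in the knockout libraries, so that the knockout mean was 56.2% of the wild type mean and the genotypes did not overlap.

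Ttc21a, the paralogue of the IFT-A subunit IFT139 and a gene needed for sperm flagella, was at 251 to 344 CPM in the wild type and at 221, 97.6, 212 and 189 CPM in the knockout libraries. Its log2 fold change was -0.80 (SE 0.22, adjusted p = 0.0387 in edgeR), and it was -0.60 without Rfx2-/- replicate 2 (edgeR adjusted p = 0.00627). Ttc26, the IFT-B subunit IFT56, was lower in every knockout library but missed the threshold (log2 fold change -0.38, SE 0.12, adjusted p = 0.0613 in edgeR), which it passed without Rfx2-/- replicate 2 (-0.41, adjusted p = 0.0159 in edgeR). The intermediate chains of dynein-2 differed in their values. Wdr60 was at 134 to 177 CPM in the wild type and at 134, 59.6, 115 and 115 CPM in the knockout libraries (log2 fold change -0.53, SE 0.21, adjusted p = 0.127 in edgeR). Wdr34 had a log2 fold change of -0.09 (SE 0.16, adjusted p = 0.746 in edgeR), which was above 0 under scaling by total counts (0.05).

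The partners of these proteins in IFT-B and dynein-2 moved in both directions. Of 17 tested, 0 were called by edgeR, where 3.68% of all genes tested were called lower and 0.826% higher. At an unadjusted p under 0.05, 4 were below and 2 above 0, against 13.7% and 13.9% of all genes. At an adjusted p of 0.05, 1 was lower and 2 were higher, against 7.31% and 3.48%. Ift27, a small GTPase of IFT-B, had a log2 fold change of -0.93 (SE 0.14, adjusted p = 8.22e-04 in edgeR). Ift74 and Ift81, which together bind tubulin, had log2 fold changes of 0.94 (edgeR adjusted p = 0.0103) and 0.95 (edgeR adjusted p = 0.00362). The highest knockout level of either was in Rfx2-/- replicate 2.

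The 6 genes of the cytoskeleton and the centrosome were all below 0, except that Ttc5 was above 0 when scaled by total counts or with the length trend removed, with a median log2 fold change of -0.50. Besides Wdr1, Wdr47 fell at an adjusted p of 0.05. It is a microtubule-associated protein and was at 40.8, 44.2, 53.6, 49.3 and 49.0 CPM in the wild type and at 31.7, 26.6, 33.3 and 30.4 CPM in the knockout libraries (log2 fold change -0.63, SE 0.13, adjusted p = 0.00807 in edgeR). Wdr62, a spindle pole protein mutated in microcephaly, was at 891, 904, 790.3, 908 and 879 CPM in the wild type and at 802, 150.5, 557 and 584 CPM in the knockout libraries. Rfx2-/- replicate 1 lay within the wild type range and replicate 2 far below all others, and the log2 fold change of -0.74 (SE 0.35, adjusted p = 0.188 in edgeR) did not pass. Without Rfx2-/- replicate 2 it was -0.43 (edgeR adjusted p = 0.0465).

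**Figure D2:**
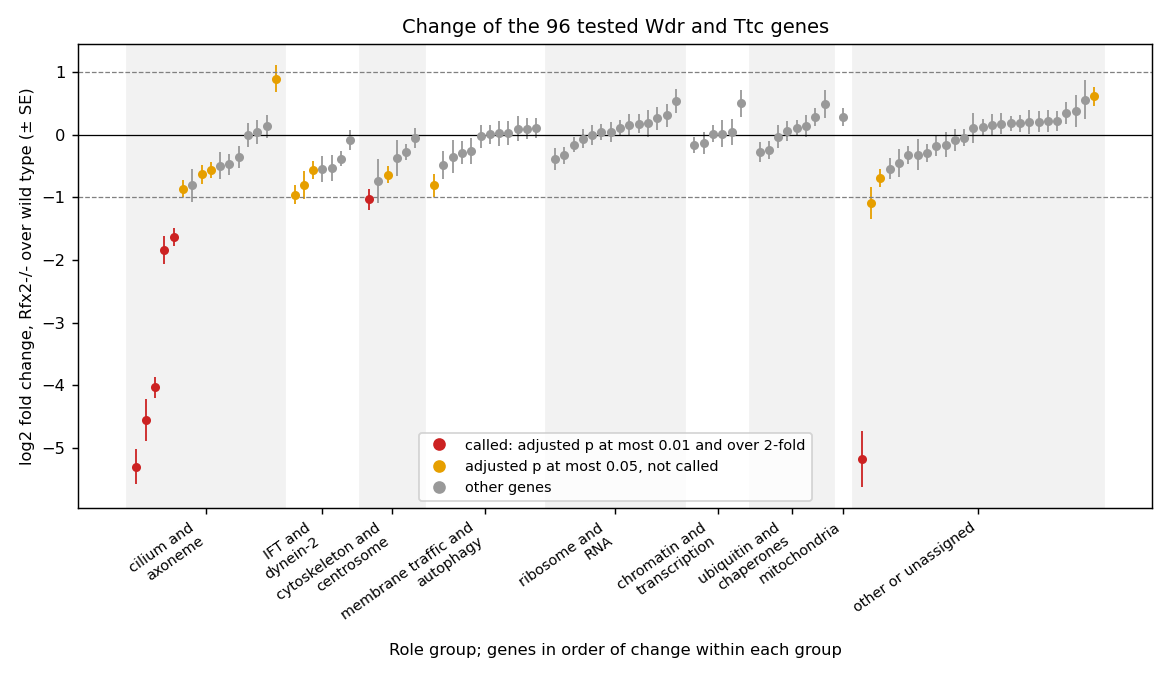
Log2 fold change (Rfx2-/- over wild type, points, with SE as bars) of the 96 tested genes, grouped by role and ordered by change within each group; dashed lines mark 2-fold. The called genes lie in cilia and axoneme (5), cytoskeleton and centrosome (1) and the genes of other or no assigned role (1), and all 7 IFT and dynein-2 genes lie below 0 (6 when scaled by total counts).

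Genes of the other groups showed few differences. Of the 12 genes of membrane traffic and autophagy, Ttc7 passed at an adjusted p of 0.05. It is a part of the complex that holds a phosphatidylinositol 4-kinase at the plasma membrane, and it was at 163, 154, 83.1, 133 and 154 CPM in the wild type and at 82.3, 80.6, 82.7 and 67.6 CPM in the knockout libraries (log2 fold change -0.81, SE 0.19, adjusted p = 0.017 in edgeR). Wild type replicate 3 lay just above the knockout libraries. In contrast, 0 genes passed at 0.05 in edgeR among the 14 genes of ribosome assembly and RNA (log2 fold changes -0.39 to 0.54), the 6 of chromatin and transcription (-0.17 to 0.50), the 8 of ubiquitin ligases and chaperones (-0.27 to 0.49) and Ttc19, a mitochondrial protein (0.28). At an unadjusted p under 0.05, 1 ribosome and RNA gene was lower and 1 higher, and 1 chromatin gene was higher. Of all genes tested, 13.7% were lower and 13.9% higher at that unadjusted limit, and 7.31% and 3.48% at an adjusted p of 0.05.

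The ribosome assembly factors Wdr3, Wdr12, Wdr36, Wdr43, Wdr46, Wdr55, Wdr74 and Wdr75 had log2 fold changes of -0.39 (Wdr46) to 0.54 (Wdr75). Wdr5, a subunit of histone H3 lysine methyltransferase complexes, was at 70.7 to 93.5 CPM in the wild type and at 67.2 to 80.1 CPM in the knockout libraries, with overlap, and its intronless paralogue Wdr5b had a log2 fold change of 0.02. The pairs Wdr20 (0.29) and Wdr20rt (-0.24), and Wdr45 (0.11) and Wdr45b (0.01), did not pass the test either. Wdr20 and Wdr20rt share 11.9% and 13.0% of their sequence with other genes. The partner lists of these proteins also had 0 genes past 0.05 in edgeR, with 6 tested for the PAF1 and SKI complexes (1 lower and 0 higher at an unadjusted p under 0.05), 19 for ribosome assembly (1 and 2) and 12 for the GATOR complexes and autophagy (0 and 1). The shares of all genes tested at the unadjusted limit were 13.7% lower and 13.9% higher.

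The last 26 tested genes have another role or none assigned. Of these, Ttc22 was called, and Ttc24 and Ttc39d were lower at an adjusted p of 0.05. Ttc24 was at 45.1, 57.6, 29.2, 47.6 and 62.7 CPM in the wild type and at 20.5, 34.6, 19.4 and 16.2 CPM in the knockout libraries. The overlap came from wild type replicate 3 and Rfx2-/- replicate 2. Its log2 fold change was -1.09 (SE 0.26, adjusted p = 0.0167 in edgeR), it was called in 5 of 17 fits, and without Rfx2-/- replicate 2 it was -1.37 (edgeR adjusted p = 7.46e-04). Ttc39d, the second highest of all 98 genes per length in the wild type, had 286 ± 42.1 CPM in the wild type (SD, n = 5) and 177 ± 14.2 CPM in the knockout (SD, n = 4), without overlap (log2 fold change -0.69, SE 0.15, adjusted p = 0.0105 in edgeR).

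Ttc14 was the other gene that rose at 0.05. It was at 69.9, 70.9, 64.6, 76.0 and 51.4 CPM in the wild type and at 111, 116, 92.6 and 87.8 CPM in the knockout libraries, with every knockout library above every wild type library (log2 fold change 0.61, SE 0.15, adjusted p = 0.0205 in edgeR). Its exons overlap those of Ccdc39, a ruler protein of the axoneme, and 10.6% of its sequence is shared with that gene. Wdr37 was the one other gene with all knockout libraries above the wild type, at 59.3 to 71.8 CPM and 72.1 to 77.9 CPM, and did not pass (log2 fold change 0.18, SE 0.12, adjusted p = 0.323 in edgeR).

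Chromatin immunoprecipitation by the study in dissociated germ cells of younger wild type mice, at postnatal day 21, had found RFX2 peaks at the promoters of 19 of the 98 genes. They were 6 of the 7 IFT and dynein-2 genes, all but Ttc21a, the ciliary genes Wdr54, Wdr90, Ttc12, Wdr93, Ttc23l, Wdr31 and Wdr66, and Ttc39d, Ttc41, Wdr5, Wdr7, Wdr13 and Wdr73. The median log2 fold change of these genes was -0.49, and 18 of 19 were below 0, with Wdr66 the exception (17 of 19 when scaled by total counts, which put Wdr34 above 0). At an adjusted p of 0.05 6 were lower (Ttc30a2, Wdr54, Ttc39d, Wdr93, Ttc12 and Ttc30a1) and 1 was higher. None was called by edgeR, and 14 were below and 1 above 0 at an unadjusted p under 0.05, where all genes tested had 13.7% and 13.9%. The largest reduction among them was the -0.96 of Ttc30a2. All 7 called genes were among the 77 tested genes without a peak, whose median log2 fold change was 0.02. The study states its promoter window differently in its results and its methods, and peaks outside promoters are not counted here.

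**Figure D3:**
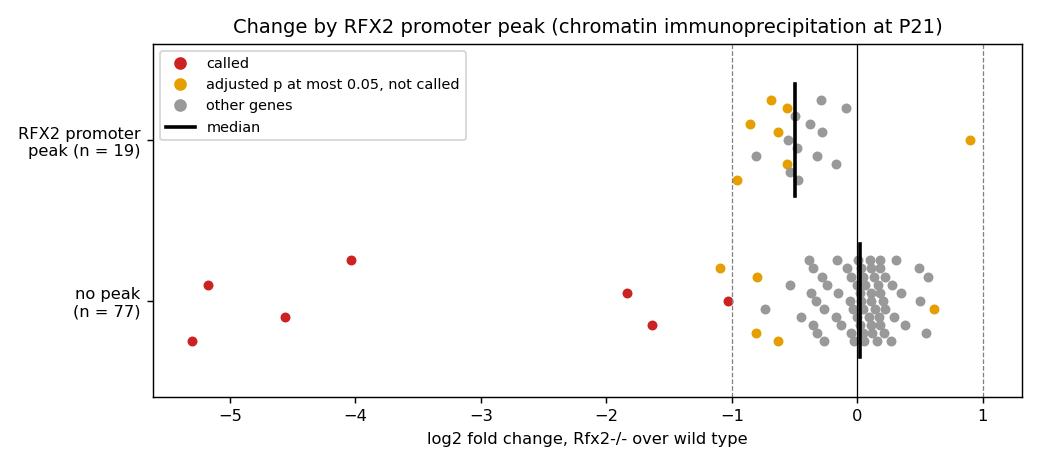
Log2 fold change (Rfx2-/- over wild type) of the 19 tested genes with and the 77 without an RFX2 promoter peak at postnatal day 21; each point is a gene, vertical position within a row has no meaning, black bars are medians and dashed lines mark 2-fold. Genes with a peak lie between -0.96 and -0.09 (Wdr34, at 0.05 when scaled by total counts) apart from Wdr66 at 0.90, and the 7 called genes lie in the row without a peak.

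A promoter sequence, from 250 bases before to 50 bases after the RefSeq start, was at hand for 80 of the 98 genes. The X-box core GTTGCC, on either strand, was present in 10 of the 80 (12.5%), compared with 14.1% of all genes in the promoter table, and the full X-box form in 6 of the 80 (7.50%), compared with 2.16%. Among these 6 was Ttc13, which had no RFX2 peak and was not reduced (log2 fold change 0.21, SE 0.17, adjusted p = 0.433 in edgeR). Its match starts 219 bases before the RefSeq start. Among the called genes with a promoter sequence, 0 of 6 held the core and 1 of 6, Ttc29, held the full form. Among the genes that were lower at 0.05 without being called, 5 of 10 held the core and 3 of 10 the full form (Ttc30a2, Wdr54 and Wdr47). Of the 17 genes with an RFX2 peak and a promoter sequence, 6 held the core and 3 the full form (Ttc30a2, Ttc26 and Wdr54). The core lies within the full form in all of the last 3, and in Wdr54 it is read on the other strand. A match is a description of the sequence only. Sequences close to the pattern but not identical at its fixed bases were not counted, so these shares do not show which genes lack an X-box.

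Genes that once carried a Wdr or Ttc name and are now listed under another symbol, of the cilium and of other functions, were tested for comparison, 22 in all. Of these, 5 were called lower and 0 higher, against 3.68% and 0.826% of all genes tested. At an adjusted p of 0.05, 1 was higher, against 3.48% of all genes. Those called were Cfap46 (log2 fold change -3.33), Cfap70 (-2.71), Cfap52 (-1.67), Daw1 (-1.39) and Cfap43 (-1.07), all proteins of the axoneme or, in the case of Daw1, of the delivery of dynein arms to it. Other genes of the list named Cfap were not called, Cfap57 at -0.83 (adjusted p = 0.0563 in edgeR) and Cfap44 at 0.20 (adjusted p = 0.669 in edgeR). Emc2, a subunit of a membrane insertion complex of the endoplasmic reticulum, was higher (0.70, edgeR adjusted p = 0.038). Of the 7 genes left out by name, Wdr78 (-1.49) and Ttc25 (-1.13), which take part in dynein arms and their docking, were called lower, and Ttc8, a subunit of the BBSome, was lower at 0.05 (-0.72, edgeR adjusted p = 0.0122).

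Levels between genes were compared as CPM per kb of exons. The median of the 98 genes in the wild type was 10.4 CPM per kb, with a range from 0.0166 for Wdr72 to 184 for Wdr62, and 93 genes were over 1. The highest were Wdr62 (184 ± 10.2 CPM per kb, SD, n = 5), Ttc39d (117 ± 17.3), Wdr48 (102 ± 9.50), Ttc4 (89.9 ± 10.8) and Ttc29 (86.1 ± 9.86). Wdr62 stood above Ttc39d by more than the sum of their SDs, and each of the other 4 differed from the next of them by less than that sum. Wdr48, an activator of ubiquitin-specific proteases, and Ttc4, a cochaperone of HSP90, had log2 fold changes of -0.27 and 0.06 and did not pass the test. In the knockout Ttc29 was at 27.7 ± 2.46 CPM per kb (SD, n = 4), whereas Ttc4 was at 93.9 ± 18.8.

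The departure of Rfx2-/- replicate 2 by length was also seen among these genes. For the 22 genes with over 5 kb of exons its median log2 level relative to the wild type mean was -0.66, compared with -0.09 to 0.13 in the other knockout libraries, and it was the lowest knockout library for 17 of the 22. For the 22 genes under 2.5 kb the median was 0.33 in this library and -0.21 to -0.06 in the others, and it was the highest for 18 of them. Without this library 7 genes were called lower and 1 higher, and at the 0.05 limit 23 were lower and 3 were higher, while 9.77% of all genes were lower and 4.93% higher. Wdr1 was then no longer called, and Ttc24 (lower) and Wdr66 (higher) were. The part of RNA quality in this departure was not tested.

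**Figure D4:**
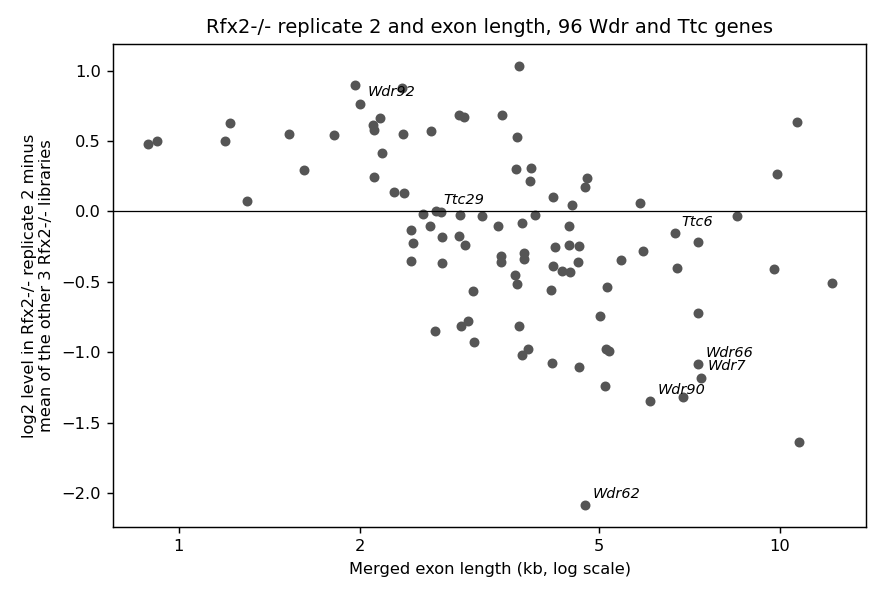
Log2 level in Rfx2-/- replicate 2 minus the mean of the other 3 Rfx2-/- libraries against the merged exon length (kb, log axis) for the 96 tested genes, each relative to the wild type mean. Most genes under 2.5 kb lie above 0 and most over 5 kb lie below 0, with Wdr62 the lowest, while Ttc6 and Ttc29, called in all fits, lie close to 0.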

How the data were processed

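The file deposited by the authors gives unnormalised counts for each gene, made from single reads of TruSeq libraries that were mapped to GRCm38, with reads of more than one position discarded, and counted over merged exons, leaving out reads in exons of different genes. Submitters' processing notes name CASAVA 1.8.2, STAR 2.4 and featureCounts 1.4.6. Use of strand is not given in the sources used here, so overlapping genes are uncertain. Copies lose reads.

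The quasi-likelihood method of edgeR 4.0.16 was run in R 4.3.3 (TMM, filterByExpr, robust) with genotype as the only factor and Benjamini-Hochberg adjustment over 15613 genes. A call required an adjusted p at or under 0.01 and more than 2-fold. Alternatives included DESeq2 1.42.0 and limma 3.58.1 voom. The smallest difference between libraries of a genotype was 4.32 chi-square per gene, so none was a duplicate. Labels give each mouse a number of its own but no litter, and the p-values set the difference between genotypes against the spread between mice. A floor of 3 counts is 0.0996 CPM in Rfx2-/- replicate 1 and 0.196 to 0.234 CPM in the others.

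GENCODE M21 held 96.6% of the gene IDs. The genes, role groups and lists were chosen with earlier results of these data known. Named genes are all called genes, up to 10 per direction at an adjusted p of 0.05, all ciliary and IFT genes, the 5 highest per length, genes with copies, those next to the count minimum and those with a library apart. The fit was tested on simulated data.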

Additional observations from a re-analysis of the deposited data

Results flagged for a closer look

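A single library lay apart from the others of its genotype, by a gap that Dixon's ratio at 95% would give in about 1 in 20 groups by chance, in 12 of 192 groups of wild type or knockout levels (9.6 expected). Of these, 5 were in Rfx2-/- replicate 2, which was the highest of the knockout libraries for Ttc32 (2.94 CPM, others up to 1.83), Ttc5 (21.9, others up to 15.7) and Wdr92 (35.1, others up to 21.6) and the lowest for Wdr24 (25.1, others from 46.7) and Wdr7 (42.4, others from 93.1). Rfx2-/- replicate 4 was the highest for Ttc30a1 (20.1 CPM, others up to 17.6) and the lowest for Ttc7 (67.6, others from 80.6). Wild type replicate 3 was the highest for Ttc7b (21.5 CPM, others up to 15.4) and Wdr82 (76.9, others up to 65.7) and the lowest for Wdr62 (790.3, others from 879). Wild type replicate 5 was the highest for Ttc34 (35.3 CPM, others up to 19.5) and the lowest for Wdr76 (3.74, others from 6.05).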

How the results depend on the processing

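The 6 genes Wdr38, Ttc22, Wdr95, Ttc6, Ttc16 and Ttc29 were called in all of 17 fits. Leaving out 1 library at a time gave 6 to 8 genes called lower and 0 to 1 called higher, and 12 to 23 lower and 0 to 4 higher at an adjusted p of 0.05. The 1 gene called higher, Wdr66, was called under total counts (1.02), which move the median of all genes from 0.03 to 0.16, with the length trend removed (1.03) and without Rfx2-/- replicate 2 (1.10). Genes near 0 changed sign. With total counts Wdr34 was at 0.0450 and Wdr64 at 0.150. Wdr64 was at 0.00652 with RLE factors, 0.0217 with all genes kept and 0.0870 with the length trend removed. In limma-voom Ttc4 (-0.0752), Wdr45b (-0.124) and Wdr92 (-0.0610) changed sign. Leaving out 1 library gave -0.0463 to 0.189 for Ttc4, -0.0721 to 0.214 for Wdr27, -0.242 to 0.0422 for Wdr34, -0.154 to 0.141 for Wdr45b, -0.0840 to 0.133 for Wdr5b, -0.0822 to 0.136 for Wdr64 and -0.100 to 0.263 for Wdr92. The cause was not tested. Genes with few counts, such as Ttc22 and Wdr95, are limited by depth. No paired analysis was possible because the labels give each mouse a number of its own and no litter or pair, and replicate numbers follow the order of deposition.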
